A study of Drosophila melanogaster with 4 samples.

Results

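The peaks of GFP-tagged Usp across the EcR locus at 42A on chromosome arm 2R were taken from the deposited peak list as those with a midpoint from 1985000 to 2080000 (FlyBase release 5), an interval of 95 kb. They numbered 36 of the 2970 peaks on the 6 chromosome arms and of the 3053 in the whole list. Members were chosen by position alone, but the locus was selected on the number of peaks that the list shows there, so the number, position, width and score of these peaks are given as a description, with no test.

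EcR (Dmel_CG1765) encodes the ecdysone receptor, a nuclear receptor that binds DNA as a heterodimer with Usp, the product of ultraspiracle and a relative of the vertebrate retinoid X receptors. The pair binds the steroid 20-hydroxyecdysone and controls the genes that drive molting and metamorphosis. EcR is transcribed from more than one promoter into isoforms that differ at the N terminus, and it is itself known to be induced by ecdysone. Binding at EcR therefore concerns a gene whose product is the partner of the tagged protein.

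Chromatin came from wandering larvae of the third instar (L3) of *Drosophila melanogaster*, strain USP-GFP, with the genotype label PBac{y[+]-attP-3B}VK00033 and a transgene labelled as the genomic coding region of USP. The series has 2 Usp-GFP ChIP libraries, made with the rabbit polyclonal GFP antibody ab290, and 2 input libraries of the same strain and stage. The labels' protocol gives a growth temperature of 25 °C and fixation of the larvae with 1.8% formaldehyde for 15 min. It speaks of y; bw cn sp flies, which is not the strain label. Sex is labelled unknown, and the labels do not say whether the animals also carried untagged usp. The protocol describes collection of larvae and no dissection, so binding in different tissues cannot be told apart. The list gives 1 value per peak for the series as a whole. Spread between replicates therefore cannot be given for any peak, and the depth of each library is unknown.

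In the gene table used here, which is in Release 6, EcR lies between the protein-coding genes Ars2 and Cyp6w1. It contains 15 smaller genes, namely CG14589, lncRNA:CR43904 and 13 tRNA genes. Because the builds differ, peaks were not placed in exons, introns or promoters, nor divided between EcR and these genes. How far the interval matches the annotated ends of EcR was not checked.

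The 36 peaks were packed into the lower part of the interval. Of these, 35 formed a single region from 1994212 to 2037854 (43.6 kb) in which each peak lay less than 5 kb from the next, and peaks covered 21.3 kb, or 48.9%, of it. The remaining peak stood alone from 2045161 to 2045499 (339 bp, score 8.82). Above it, 34.5 kb of the interval, or 36.3%, held no peak, and the first 9.21 kb held none either. Over the whole interval, peaks covered 21.7 kb, or 22.8%, against 1.18% of the rest of the arms. The density was 379 peaks per Mb, 15.1 times the 25.1 per Mb of the rest of the arms and 14.1 times the 26.8 per Mb of the rest of 2R. The interval makes up 0.476% of the span of 2R from its first to its last peak, and held 6.33% of the arm's peaks and 8.47% of the sequence they cover.

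**Figure D1:**
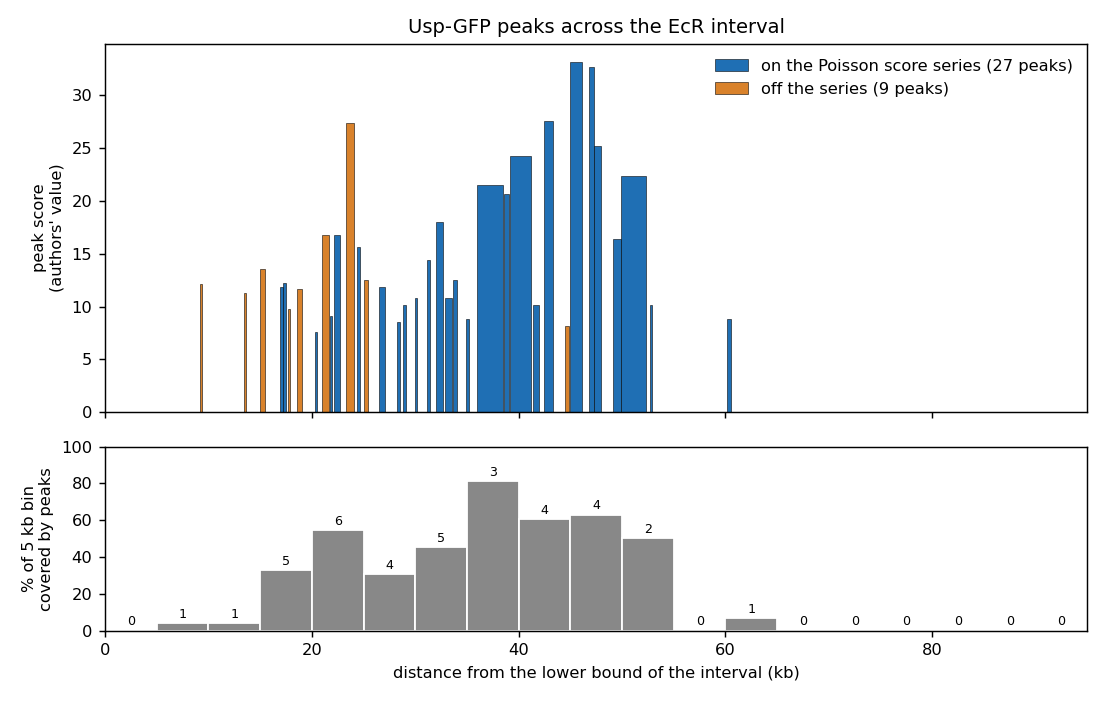
Usp-GFP peaks along the EcR interval, as distance from its lower bound in kb. The upper panel shows each peak as a bar of its own width, with height giving the authors' score and colour giving whether the score lay on the Poisson series (27 peaks) or off it (9 peaks); the lower panel shows the percent of each 5 kb bin covered by peaks, with the number of peak midpoints above each bar. The highest bin is 81.1% covered by peaks, and 8 of the 19 bins hold no midpoint.

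The peak-free flanks reached well past the interval. The nearest peak below it ran from 1964097 to 1964301 (205 bp, score 15.75), 20.7 kb from the lower bound and 29.9 kb from the first member. The nearest peak above it ran from 2108046 to 2108435 (390 bp, score 44.83), 28.0 kb from the upper bound and 62.5 kb from the last member. No peak lay close to either bound, so a peak that merely overlaps the interval adds none to the 36.

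The strength of a peak is given by the authors' score and, where it can be worked out, by a fold over background. The file does not state what the score measures. Repeated score values matched the −log10 Poisson probability of whole-number fragment pileups over a genome-wide background of 43.9, so a peak within 0.01 of that series has an implied pileup and a fold. MACS scores a peak against a local background where that is higher, and for a peak off the series no fold is given. Of the 36 EcR peaks, 27 lay on the series, 75% (exact 95% interval 57.8 to 87.9%). Over all arm peaks the share was 75%, so in this the EcR peaks did not stand apart.

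The highest score in the locus, 33.19, belonged to a peak of 1195 bp from 2029973 to 2031167, with an implied fold of 3.33 (95% interval 2.81 to 3.91). The second, 32.67, lay 606 bp further on, from 2031774 to 2032235 (462 bp), at 3.30 times the background (2.79 to 3.89). The intervals of this pair overlap, so counting error alone covers their order. The next score, 27.60, was that of a peak of 804 bp from 2027477 to 2028280, at 3.08 times (2.58 to 3.64). The fourth, 27.39, was off the series and lay at lower coordinates, from 2008335 to 2009082 (748 bp). After it came a score of 25.19, from 2032284 to 2032961 (678 bp), reached 2.96 times (2.47 to 3.52). Of these 5 peaks, 4 thus fell between 2027477 and 2032961.

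The widest peak ran from 2020927 to 2023499 (2573 bp, score 21.50) at 2.78 times the background (2.31 to 3.32). The next ran from 2034904 to 2037308 (2405 bp, score 22.40) at 2.83 times (2.35 to 3.37). The next in width, from 2024206 to 2026239, was 2034 bp wide with a score of 24.24 and stood at 2.92 times (2.43 to 3.47). These broad peaks did not have the highest scores: each scored below the narrower peak from 2027477 to 2028280 that lies among them. Their fold intervals overlap that of the narrower peak (2.58 to 3.64), so counting error alone covers this order. Next in width were the 1195 bp and 804 bp peaks already given.

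In all, 4 of the 36 peaks were wider than 1 kb, 11.1%, where 6.43% of all arm peaks were. Together these 4 made up 37.9% of the sequence covered in the locus. Peaks wider than 1 kb made up 25.6% of the covered sequence elsewhere on the arms.

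Read from low to high coordinates, the locus began with thin, separate peaks. The first member ran from 1994212 to 1994418 (207 bp, score 12.12) and the second stood 4004 bp further on, from 1998423 to 1998628 (206 bp, score 11.31). Another followed from 2000013 to 2000450 (438 bp, score 13.54). All 3 were off the series. Then came 4 peaks from 2001950 to 2004030, of 201 to 459 bp and scores of 9.77 to 12.19. None of these first 7 peaks scored above 13.54.

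The next stretch, from 2005299 to 2010476, held 7 peaks less than 1 kb apart. It contained both the lowest score of the locus, 7.60 (from 2005299 to 2005503, 205 bp, 1.94 times the background, 1.55 to 2.39), and the fourth highest. A peak of 548 bp with a score of 11.83 stood alone from 2011485 to 2012032.

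The longest unbroken stretch at a distance of 1 kb ran from 2013279 to 2028280 and held 13 peaks that covered 63.7% of its 15.0 kb. Every one of these 13 was on the series, at 2.00 to 3.08 times the background. The first 7 of them were 227 to 677 bp wide with scores of 8.51 to 18.03, and the broad peaks of 2573 and 2034 bp came later in the stretch. Past it, 4 peaks from 2029519 to 2032961 covered 78.4% of 3443 bp and included the highest and second highest scores. The last 3 peaks of the region, from 2034114 to 2037854, covered 89.7% of 3741 bp, and the final one, from 2037652 to 2037854, was 203 bp wide with a score of 10.11.

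Coverage per 5 kb bin rose and fell along the locus. The first bins with peaks, from 1990000 to 1999999, were 4.14% and 4.12% covered, and the next was 32.9% covered. It was 54.6% from 2005000 to 2009999, 30.8% in the next bin and 45.2% in the one after. It was greatest from 2020000 to 2024999, at 81.1%, and was then 60.5%, 63.0% and 50.2% in the bins up to 2039999. The greatest number of midpoints, 6, was in the bin from 2005000 to 2009999, and the bin with most coverage held 3.

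The gaps between neighbouring EcR peaks had a median of 538 bp (interquartile range 156.5 to 983 bp, n = 35 gaps), and the shortest was 44 bp. Among gaps under 5 kb, the median was 486.5 bp at EcR and 592 bp elsewhere on the arms, and 76.5% against 66.3% were under 1 kb. Of the 35 gaps, 11 were under 200 bp, 31.4%, against 13.2% of all 2964 gaps between neighbouring arm peaks. The last share includes gaps beside isolated peaks. Among the 1871 other gaps under 5 kb, 20.3% were under 200 bp, beside 32.4% of the 34 such gaps in EcR. The narrowest peak in the whole arm list was 201 bp, so any gap under 200 bp is shorter than any peak by that cutoff alone. The shortest gap between other neighbouring arm peaks was also 44 bp.

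Joining EcR peaks less than 200 bp apart left 25 stretches, of which 7 held more than 1 peak and took in 18 of the 36. The longest such stretch ran from 2020927 to 2026938 (6012 bp), held 4 peaks and was 94.4% covered. The second longest, from 2034114 to 2037308 (3195 bp), held 2 peaks separated by 44 bp and was 98.6% covered. The list gives no signal inside a gap or at a summit, so whether such neighbours are separate sites cannot be told from it.

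Compared with other Usp peaks, those at EcR had a somewhat higher median width and much the same scores. The median width was 415 bp (interquartile range 249.5 to 677.25 bp, binomial 95% interval of the median 319 to 590 bp) against 324.5 bp (248 to 482.75 bp) for the 2934 other arm peaks and 319 bp for the 533 others on 2R. The interval of the EcR median takes in 324.5 bp and has 319 bp as its lower bound. That interval treats the peaks of the locus as independent, although these peaks share their libraries and peak call. It is therefore a description and does not test whether the medians differ. The median score was 12.3 (interquartile range 10.1 to 18.7) against 12.2 for the other arm peaks (9.86 to 16.8) and 12.2 for the others on 2R. For peaks on the series, the median fold was 2.28 at EcR (27 peaks, range 1.94 to 3.33) and 2.30 on the rest of the arms (2200 peaks, range 1.80 to 5.79). These ranges leave out peaks off the series. Among those were the highest score of the other arm peaks, 483.07, and the highest of the others on 2R, 141.74.

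Scores at EcR ran from near the bottom of the list, 7.60 with 2.90% of arm peaks lower, to 33.19 with 94.2% lower. In the top 25% of arm peaks by score, with ties kept, there were 12 of the 36, or 33.3% (exact 95% interval 18.6 to 51.0%), where the background is 25.8%. In the top 50% there were 19, or 52.8%, where the background is 52.2%. A score of at least 20 was reached by 9, or 25% (exact 95% interval 12.1 to 42.2%), where the background is 16.5%. None reached 40 (exact 95% interval 0 to 9.74%). The share of all arm peaks reaching 40 is not given here, but it cannot exceed the 5.59% that scored above 33.19. That bound lies inside the interval, so the lack of such scores did not set the locus apart. On the arms, 166 peaks (5.59%) scored above the highest EcR peak, 29 of them on 2R, while 28 arm peaks (0.943%) were wider than the widest one at EcR.

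**Figure D2:**
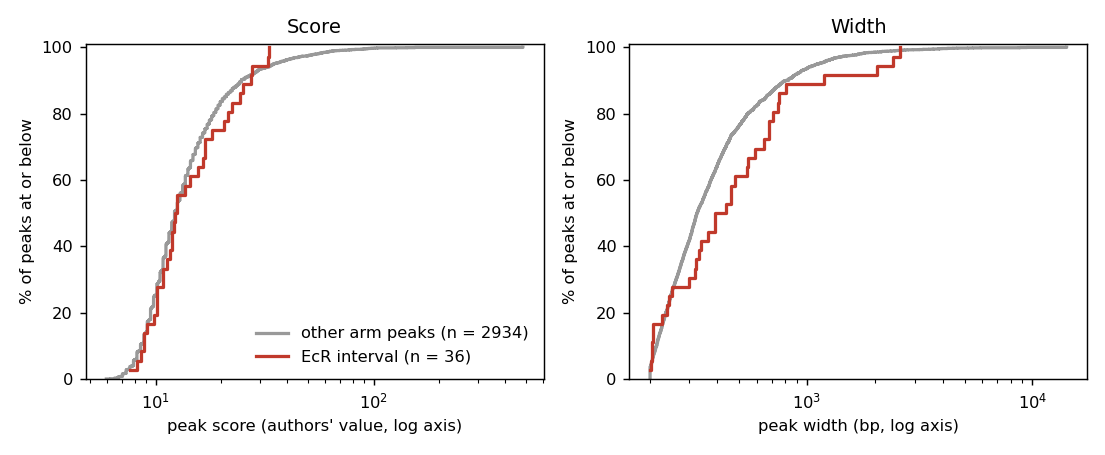
Percent of peaks at or below a given score (left) and width in bp (right), both on log axes, for the 36 peaks of the EcR interval and the 2934 other arm peaks. The score curves run close together up to the median and the EcR curve ends at 33.19; the width curve of EcR lies to the right of the other over its middle part, with medians of 415 and 324.5 bp.

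Wider peaks at EcR had higher scores, with a Spearman correlation of 0.73 across the 36 peaks, beside 0.55 across the other arm peaks. The points share their libraries and peak call, and height and width are linked by the calling threshold, so the values are a description only.

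Another peak lay within 1 kb of 31 of the 36 EcR peaks, 86.1%, where 60.8% of all arm peaks had one. The locus was chosen for its many peaks, so closeness follows from that choice and nothing is read from this share. Midpoints of neighbouring peaks in the region of 35 were a median of 1214.5 bp apart.

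Beside the other large groups of Usp peaks, the EcR region ranked high by its extent and near the middle by its strength. Joining arm peaks less than 5 kb apart gave 1065 regions, 57 of them with 10 or more peaks. Among those 57, the EcR region ranked 3 by number of peaks (35, median of the others 12), 2 by span (43.6 kb, median 17.4 kb) and 2 by covered sequence (21.3 kb, median 6.04 kb). Its coverage of 48.9% ranked 17, its highest score of 33.19 ranked 25, and its median score of 12.5 ranked 27. Its 0.802 peaks per kb ranked 24 (median 0.754), its median width of 438 bp ranked 14 (median 359.5 bp), and its widest peak ranked 10.

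Of these regions, 4 held 30 or more peaks. The largest, on 3L from 17908036 to 18031833, had 71 peaks with a median width of 580 bp, a highest score of 81.81 and 18 peaks wider than 1 kb. The region on 3R from 12035333 to 12077744 had 36 peaks over 42.4 kb, close to EcR in number and span, with 46.1% covered, a median width of 412.5 bp and a highest score of 52.62. The region on 3L from 8667807 to 8703846 had 33 peaks over 36.0 kb, with 48.6% covered, a median width of 352 bp and a highest score of 25.66. The EcR region, with a median width of 438 bp and 4 peaks wider than 1 kb, thus lay between the last pair in its highest score and close to both in coverage.

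**Figure D3:**
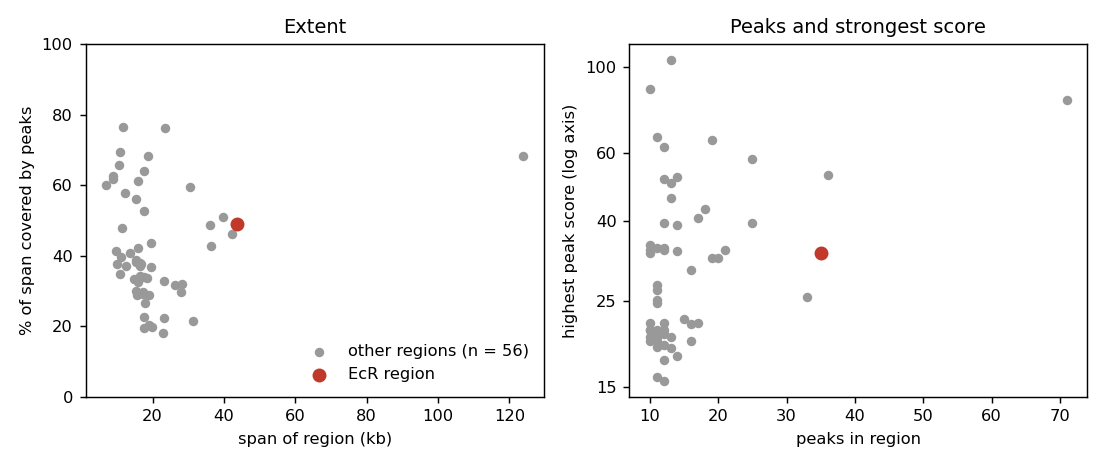
The 57 regions of 10 or more arm peaks joined at less than 5 kb, each as a point, with the EcR region in red. The left panel plots the percent of the span covered by peaks against the span in kb and the right panel the highest peak score (log axis) against the number of peaks; EcR lies second in span at 43.6 kb, and its highest score of 33.19 ranks 25.

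Few windows of the same length held as many peaks. Of 23269 overlapping windows of 95 kb that do not touch the interval, moved in 5 kb steps over the arms, 58 had at least 36 peaks, 0.249%, and 51.2% had none. Those 58 windows came from 5 places, 4 on 3L and 1 on 3R, with 36 to 49 peaks in their fullest window. By covered sequence, 45 windows (0.193%) reached the 21.7 kb of EcR. The window was placed on EcR because of its peaks, so these ranks describe the locus and do not test it.

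**Figure D4:**
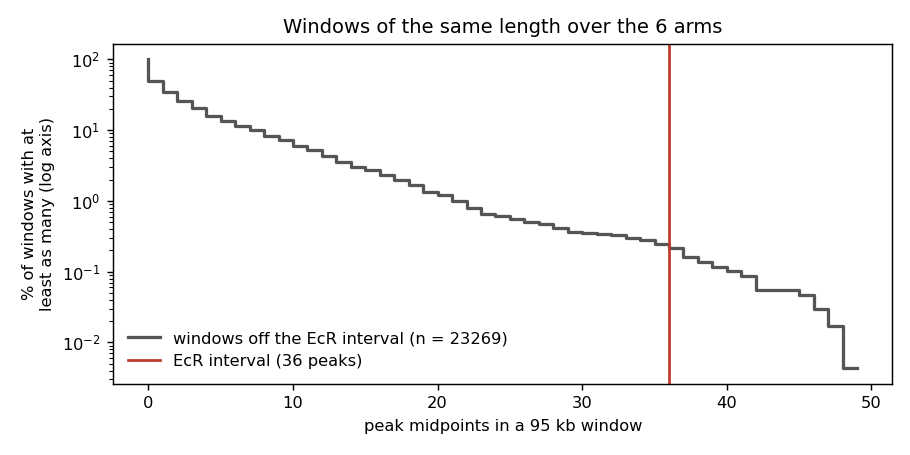
Percent of windows of 95 kb (log axis) with at least a given number of peak midpoints, over 23269 overlapping windows on the 6 arms that do not touch the EcR interval. The vertical line marks the 36 peaks of EcR, a number reached in 0.249% of the windows.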

How the data were processed

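Per the file headers, the authors called peaks with MACS on FlyBase release 5 and deposited 1 list with a score for each peak. The submitters' processing notes list MACS2, BWA, the build BDGP5 and CASAVA (1.7.0.3, 1.7.0.2) without saying what each did. No source used here gives the thresholds, the filters or the pooling of replicates, and depth per library is unknown.

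Members were the peaks on 2R with a midpoint from 1985000 to 2080000. The interval and all comparisons were chosen with earlier results of these data known. Position, width and score all come from the same deposited list, so they are described, not tested.

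The background of the score series was fitted to the 52 score values shared by at least 10 peaks, by the smallest mean distance to −log10 Poisson probabilities of k or more fragments. It was 43.9, with a mean distance of 0.00299. Peaks within 0.01 were taken as on the series. The fitting was tested on simulated scores made with the same Poisson formula. That test cannot show that the deposited score follows this formula. Intervals are exact Poisson (folds) or exact binomial (shares) at 95% and cover counting error only. Intervals of shares and medians treat the peaks of the locus as independent, although these peaks share their libraries and peak call. Distances run edge to edge. Windows were moved in 5 kb steps from the first peak of each arm.

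Peaks described one by one were the 5 highest scores, the 5 widest peaks, the ends of joined regions, the first and last members and the nearest peaks outside. Software was matplotlib 3.10.9, scipy 1.17.1, pandas 2.3.3, numpy 2.4.6 and Python 3.11.15.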

Additional observations from a re-analysis of the deposited data

How the results depend on the processing

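No paired analysis was possible because the list gives 1 score per peak and names no replicate, and leaving out a replicate was not possible for the same reason. Of 31 alternative values over 9 results, 20 stayed within 1.5 times the reported count, density or coverage, or within the 95% interval of the reported median or share, and 11 did not. The 20 include values for any overlap with the interval, which returns the same 36 peaks and so could not move. Among the stronger 50% or 25% of arm peaks there were 19 or 12 EcR peaks in place of 36, and 12 (top 50%) in the largest region of 35. Such a filter lowers counts by construction. The density under it was 15.3 (top 50%) and 19.6 (top 25%) times that of the rest of the arms, beside 15.1 for all peaks. The top 25% covered 14.0% of the interval. Median width rose from 415 to 677 bp (top 50%) and 728.5 bp (top 25%), and to 414.5 and 508.5 bp among other arm peaks, as fewer, stronger peaks remain. Joining peaks less than 1 kb apart left 10 stretches, the largest holding 13 peaks, and a density 7.27 times that of the rest of the arms in place of 15.1. Coverage was 42.3% from first to last member and 48.9% of the region joined at 5 kb, as the first leaves out both empty ends of the interval and the second also the lone last peak and the gap before it. If the score stands for more than k fragments, the median fold is 2.26, and 2.28 elsewhere. Alternatives added after seeing the data were joining at 0.2 kb (25 stretches), the rest of 2R, the coverage of the joined region, and medians over peaks on the series. Unknown depth limits every fold to counting error.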

Other observations

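The region of 35 peaks differed along its length, a pattern noticed in the values and not tested. Split at its middle position, the lower part (1994212 to 2016033) held 18 peaks that covered 29.99% of it, with a median width of 310 bp and a median score of 11.8. The upper part (2016034 to 2037854) held 17 peaks that covered 67.8%, with a median width of 643 bp and a median score of 18.03. All 4 peaks wider than 1 kb and 8 of the 9 scoring at least 20 were in the upper part. For peaks on the series, the median fold was 2.20 in the lower part (10 peaks) and 2.67 in the upper (16 peaks). These medians leave out 8 of the 18 lower peaks, among them the highest score there, 27.39, and 1 of the 17 upper peaks. They therefore describe unequal shares of the 2 parts. Over all 36 peaks, the Spearman correlation with position was 0.46 for width and 0.24 for score, peaks of 1 locus that share libraries and peak call.

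Of the 9 peaks off the score series, 8 were in the lower part and 1 in the upper. With a tolerance of 0.015 in place of 0.01, 6 remained off, with scores of 11.31 to 27.39, all of them in the lower part. At that tolerance 83.3% of the EcR peaks lay on the series, beside 80.7% of the other arm peaks, so the locus did not stand apart in this. The local background used for each peak is not in the list, so why those 6 lay off the series was not tested.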
